A study of Mus musculus with 36 samples.

Results

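Whole submandibular salivary glands of double-mutant and control mice were compared by Drop-seq at postnatal day 90 (P90), the later of the 2 stages at which the study ran this assay. The comparison took every Drop-seq table whose title marks a P90 gland of either genotype, which gave 13 of the 36 samples of the series, 7 from double-mutant mice and 6 from control mice. All 13 mice were C57BL/6, of both sexes, and carried Cre under the keratin 14 (K14) promoter, which is active in basal epithelial cells, together with an EYFP reporter in the Rosa26 locus that is switched on by Cre. Control mice carried no further engineered allele by their labels, so that Cre activity was common to both groups. Double-mutant mice carried in addition a floxed gain-of-function allele of β-catenin and floxed loss-of-function alleles of Bmpr1a, both recombined in K14-expressing cells and their descendants, whereas the other cells of the gland kept unrecombined alleles. The tissue was dissociated, live single cells were sorted and fixed in methanol, and each library holds the cells of 1 mouse as far as its label tells.

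β-Catenin carries the canonical Wnt signal to the nucleus, where it acts with TCF/LEF factors on target genes, several of which encode feedback inhibitors of the pathway such as Axin2, Nkd1, Notum and Wif1. Bmpr1a is a receptor for bone morphogenetic proteins (BMPs), which signal through Smad proteins and induce the Id genes. The mouse submandibular gland consists of acini, which secrete saliva, and of ducts, among them the granular convoluted tubules, which store kallikreins, renin and epidermal growth factor and are far larger in males because they depend on androgens.

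Of 13068 barcodes in the 13 tables, 11229 were kept, those with 100 or more detected genes and less than 15% of their unique molecular identifiers (UMIs, 1 per captured transcript) from mitochondrial genes, 6242 in double-mutant and 4987 in control glands. Their UMIs were summed per gland, the replicate in every test. The sums ran from 691944 to 3928909 UMIs in double-mutant and from 1679478 to 2558112 in control glands, and levels are given as CPM (UMIs scaled to a common library total, after TMM scaling), in the order lowest, median and highest gland. No pair of glands shared more than 1 cell barcode. In 12 libraries Xist and 4 Y-linked genes matched the labelled sex, whereas the library labelled double-mutant replicate 5, a female by its label, held 0 Xist and 194 Y-linked UMIs. Double-mutant replicate 4 had the highest share of ribosomal protein transcripts (8.21% of its UMIs, 2.47 to 8.21% over double-mutant and 2.03 to 4.99% over control glands). Double-mutant replicate 7 stood apart, with 0.43 CPM of each of Wif1 and Ltf. For Wif1 it lay inside the control range, and the other 6 mutants lay above every control gland. For Ltf it was the lowest mutant gland, and no control gland had a UMI. Only Drop-seq batches B8 and B9 held both genotypes, 3 double-mutant and 4 control glands. By label 1 of these mutants and 3 of these controls were male, and the fit within these batches had no sex term. In these batches alone 77 of the 80 named genes called over all glands were called, and 6 further named genes passed. Of all 446 genes called over all glands 392 were called there, in a fit that called 2378 of 10263. The 80 were chosen on all 13 glands, which include these, so this is not independent evidence. Values of the genes whose call changed are given with the genes.

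The targeted genes were examined first. Ctnnb1, the β-catenin gene, was at 56.8, 91.5 and 137 CPM in double-mutant glands and 38.4, 55 and 127 CPM in control glands, and the ranges overlapped (log2 fold change 0.46 ± 0.26, adjusted p = 0.304, standard error after ±, edgeR quasi-likelihood test here and below). Within batches B8 and B9 its log2 fold change was 0.90, adjusted p = 0.016. Bmpr1a was at 12.9, 16.7 and 23.7 CPM in double-mutant glands and 16, 23.4 and 25.1 CPM in control glands (log2 fold change -0.28 ± 0.21, adjusted p = 0.46). Counting of 3′ transcript ends does not see which exons a transcript holds, so neither level checks the recombined alleles. Cre was too low to be tested, with 0.943, 2.02 and 4.73 CPM in double-mutant glands and 2.36, 3.47 and 4.73 CPM in control glands. The reporter EYFP was at 0, 19.2 and 24 CPM in double-mutant glands and 67.4, 98.7 and 175 CPM in control glands. All 7 double-mutant glands lay below all 6 control glands, and the double-mutant library labelled replicate 5 held no EYFP UMI (log2 fold change -3.02 ± 0.55, adjusted p = 0.00918). Krt14, whose promoter drives Cre, was at 6.02, 49.95 and 169 CPM in double-mutant glands and 8.08, 49.9 and 96.2 CPM in control glands and overlapped fully (log2 fold change 0.61 ± 0.55, adjusted p = 0.539), while within batches B8 and B9 it was higher in double-mutant glands (2.58, adjusted p = 0.00718).

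Of 9094 genes tested, 446 differed between double-mutant and control glands at an adjusted p under 0.05 (4.9%), 324 of them higher (3.56%) and 122 lower (1.34%) in double-mutant glands. The median log2 fold change over all tested genes was 0.02. Among the 12 largest rises were the secreted proteins Ltf, Bpifb9a, Spp1 and Odam, the protease Mmp12, fibronectin (Fn1), the Wnt inhibitor Wif1, the imprinted pair Igf2 and H19 and the MHC class II chain H2-Eb1. Of the 12 largest falls, 11 were kallikrein-related genes of the Klk1b family, 1 of them the pseudogene Klk1b7-ps, and the other was Crisp1, a cysteine-rich secretory protein that the gland releases under androgen control. Scaling to total UMIs in place of TMM raised the median over all genes by 0.56 on the log2 scale and gave 785 higher and 40 lower genes, so that levels below are relative to the bulk of genes. Over all genes DESeq2 gave 742 higher and 254 lower of 9094, and the fit within batches B8 and B9 1376 and 1002 of 10263. Without double-mutant replicate 7 it was 1074 and 577 of 9749. List counts under these settings are to be read against these totals. Leaving out 1 gland gave 206 called genes (without double-mutant replicate 6) to 1651 (without replicate 7), and the count moved by over 1.5 times without each of double-mutant replicates 2, 4, 5, 6 and 7 and control replicates 2, 3, 4 and 6. Calls were followed for 80 genes named by rule, without other called genes of the text such as Notum, Ren1, Meg3 and Igf1. Of these 80, 61 were called whichever single gland was left out. The other 19 missed the threshold without at least 1 gland, namely Mmp14 (1 of 13 glands), Klk1b27 (1 of 13 glands), Serpine2 (2 of 13 glands), Cd68 (4 of 13 glands), Plvap (4 of 13 glands), Cyr61 (5 of 13 glands), Timp1 (5 of 13 glands), Hspa1a (6 of 13 glands), Bmp4 (6 of 13 glands), H19 (7 of 13 glands), Ptgs2 (9 of 13 glands), Mki67 (9 of 13 glands), Atp6v0d2 (9 of 13 glands), Scnn1b (10 of 13 glands), Hk2 (10 of 13 glands), Bmp2 (10 of 13 glands), Uqcrb (11 of 13 glands), Cox5a (12 of 13 glands) and Aldoa (12 of 13 glands). In summed glands, fewer cells of a type and less RNA per cell cannot be told apart.

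**Figure D1:**
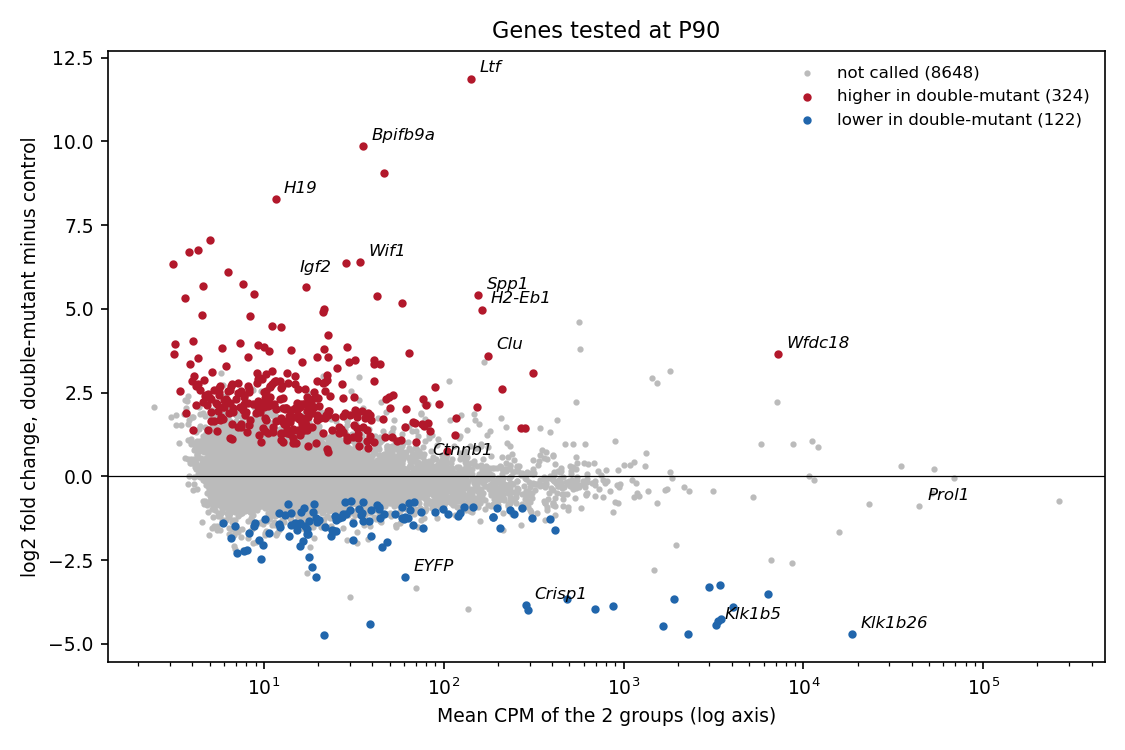
Each point is 1 of the 9094 genes tested, with the mean CPM of both groups on the log-scaled x axis and the log2 fold change of 7 double-mutant over 6 control glands at P90 on the y axis. Colored points are the 324 genes that were higher and the 122 that were lower at an adjusted p under 0.05. The Klk1b genes form the lower right group, at high mean level, whereas the largest rises lie at low to middle mean level. The fitted values of Ltf, Bpifb9a and H19, which had no control UMI, depend on a prior count and are not bounds.

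Axin2, Nkd1, Notum and Wif1, feedback inhibitors of Wnt signaling, and the target gene Tnfrsf19 were higher in double-mutant glands. Of 15 listed genes, 9 were high enough to be tested and 5 of these were higher, 0 lower, with a median log2 fold change of 1.76 against 3.56% called higher and a median of 0.02 over all tested genes. Axin2, a scaffold of the β-catenin destruction complex, was at 7.69, 16.2 and 40.4 CPM in double-mutant glands and 0, 1.37 and 3.59 CPM in control glands. Every mutant gland lay above every control gland (log2 fold change 3.75 ± 0.60, adjusted p = 0.00426). Nkd1, which dampens Dishevelled, was at 6.5, 25 and 49.1 CPM in double-mutant glands and 0, 1.69 and 3.44 CPM in control glands, again without overlap (log2 fold change 3.76 ± 0.58, adjusted p = 0.00371). Notum, a secreted enzyme that inactivates Wnt ligands, was at 4.73, 12.1 and 38.2 CPM in double-mutant glands and 0.558, 1.49 and 4.51 CPM in control glands and also separated the groups (log2 fold change 2.79 ± 0.54, adjusted p = 0.0123).

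Wif1, which binds Wnt ligands outside the cell, was at 0.43, 39.4 and 214 CPM in double-mutant glands and 0, 0 and 2.15 CPM in control glands. Within the mutant group it ranged from 214 CPM in replicate 4 and 129 CPM in replicate 5 to 0.43 CPM in replicate 7, the one mutant gland inside the control range (log2 fold change 6.41 ± 1.24, adjusted p = 0.0123). Tnfrsf19, a receptor of the TNF family known as a Wnt target, was at 10.4, 17.2 and 18.4 CPM in double-mutant glands and 1.8, 4.35 and 9.02 CPM in control glands (log2 fold change 1.76 ± 0.33, adjusted p = 0.0093), and the groups did not overlap, but within batches B8 and B9 it missed the threshold (1.62, adjusted p = 0.0548). The ubiquitin ligases Rnf43 (0.24, adjusted p = 0.722) and Znrf3 (0.56, adjusted p = 0.389), the cell cycle gene Ccnd1 (-0.21, adjusted p = 0.784) and the transcription factor gene Sox9 (-0.14, adjusted p = 0.747) did not pass the test. Dkk4 was too low to be tested.

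In the BMP pathway 2 ligands were called among 10 tested genes, with a list median of 1.12. Bmp2 was at 1.23, 11.1 and 29.2 CPM in double-mutant glands and 0.558, 0.849 and 4.73 CPM in control glands (log2 fold change 2.69 ± 0.72, adjusted p = 0.0456) and Bmp4 at 0.43, 13 and 23.5 CPM in double-mutant glands and 0, 0.574 and 1.72 CPM in control glands (log2 fold change 3.83 ± 0.89, adjusted p = 0.0264). Replicates 1 and 7 lay inside the control range of both genes, and the other 5 mutant glands lay above it. Bmp2 missed the threshold on leaving out any 1 of 10 glands (adjusted p up to 0.0921), and Bmp4 any 1 of 6 (up to 0.0657). Genes that BMP signaling induces missed the threshold, with log2 fold changes of 1.5, adjusted p = 0.0591 for Id1, 1.2, adjusted p = 0.101 for Id3 and 1.04, adjusted p = 0.0852 for Smad7. Bambi, a decoy receptor, had 1.48, adjusted p = 0.100. With DESeq2 6 of 10 were higher, with total-UMI scaling 6 of 10 and within batches B8 and B9 8 of 13, Id1, Id3, Smad7 and Bambi among them each time. With 1 gland left out the count was 0 (without double-mutant replicate 2 or 5 or 6 or control replicate 2 or 4 or 6), 1 (without double-mutant replicate 3 or 4 or control replicate 3 or 5) and 6 (without double-mutant replicate 7).

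Genes that the study names for its tumor cell population were higher in 10 of 17 tested cases and lower in 0, with a median of 3.09. The study chose this list on these samples, so the count is not independent evidence of its direction. Clu, which encodes the secreted chaperone clusterin, was at 90.7, 368 and 459.5 CPM in double-mutant glands and 21.8, 25 and 36 CPM in control glands, and the lowest mutant gland had more than the highest control gland (log2 fold change 3.61 ± 0.37, adjusted p = 3.10e-04). S100a6, a calcium-binding protein of growing cells, was at 55.5, 451 and 1559 CPM in double-mutant glands and 16.8, 68.9 and 83.4 CPM in control glands (log2 fold change 3.09 ± 0.57, adjusted p = 0.00927), and replicate 7 alone lay inside the control range. Wfdc18, a secreted protein with a protease-inhibitor fold, was the most abundant of them, at 3802, 11274 and 24900.2 CPM in double-mutant glands and 318, 534 and 6279 CPM in control glands (log2 fold change 3.65 ± 0.68, adjusted p = 0.00974). Control replicate 3, with 6279 CPM, was the single control gland above the lowest mutant gland. Ptn (2.84, adjusted p = 0.0655), Sparc (1.70, adjusted p = 0.0673) and Ctgf (1.85, adjusted p = 0.0947) missed the threshold. Muc19, a mucin that marks the adjacent sublingual gland, was at 0, 307 and 4986 CPM in double-mutant glands and 0, 8.46 and 314 CPM in control glands and its part in these levels was not tested.

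Several of the largest rises concerned genes with few or no transcripts in control glands. Lactoferrin (Ltf), an iron-binding antimicrobial protein of exocrine secretions, had 0 UMIs in all 6 controls and 0.43, 210.2 and 708 CPM in mutant glands, at least 940-fold higher than the control group at a floor of 3 UMIs over the group (adjusted p = 0.0123). Bpifb9a, a secreted protein of the BPI fold family, likewise had 0 control UMIs and 2.58, 33.3 and 272 CPM in mutants, at least 237-fold higher (adjusted p = 0.0179), and at least 126-fold without replicate 1, its highest gland. Both genes had UMIs in all 7 mutant glands. They did not follow each other there: Ltf was highest in replicates 4 and 5, and Bpifb9a was highest in replicate 1.

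Igf2, a fetal growth factor expressed from the paternal allele, was at 0, 20.8 and 230.2 CPM in double-mutant glands and 0, 0.279 and 1.69 CPM in control glands (log2 fold change 6.37 ± 1.24, adjusted p = 0.0123). H19, a noncoding RNA expressed from the maternal allele and lying 72623 bases from Igf2 on chromosome 7, had 0 control UMIs and 0, 9.1 and 93.4 CPM in mutants, at least 77.1-fold higher (adjusted p = 0.0346). Without replicate 4, the highest gland, the bound was 38.3-fold, and the call was lost on leaving out any 1 of 7 glands (adjusted p up to 0.0682). The same 6 mutant glands had UMIs of H19 and of Igf2, with replicate 4 highest for both, and replicate 7 had neither. AA467197, known as a microRNA host gene with a small mitochondrial protein product, was at 10.3, 35.5 and 50.7 CPM in double-mutant glands and 0, 0.282 and 1.72 CPM in control glands without overlap (log2 fold change 5.66 ± 0.59, adjusted p = 3.10e-04). Odam, which encodes an enamel-associated secreted protein, was at 2.96, 32.4 and 123 CPM in double-mutant glands and 0, 0.215 and 8.98 CPM in control glands (log2 fold change 4.90 ± 1.02, adjusted p = 0.0163). Ftl2 was at 1.04, 52.1 and 231 CPM in double-mutant glands and 0.43, 2.0 and 2.4 CPM in control glands (log2 fold change 5.38 ± 0.87, adjusted p = 0.00444), but it is nearly identical to the ferritin light chain gene Ftl1, so that its reads are uncertain.

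**Figure D2:**
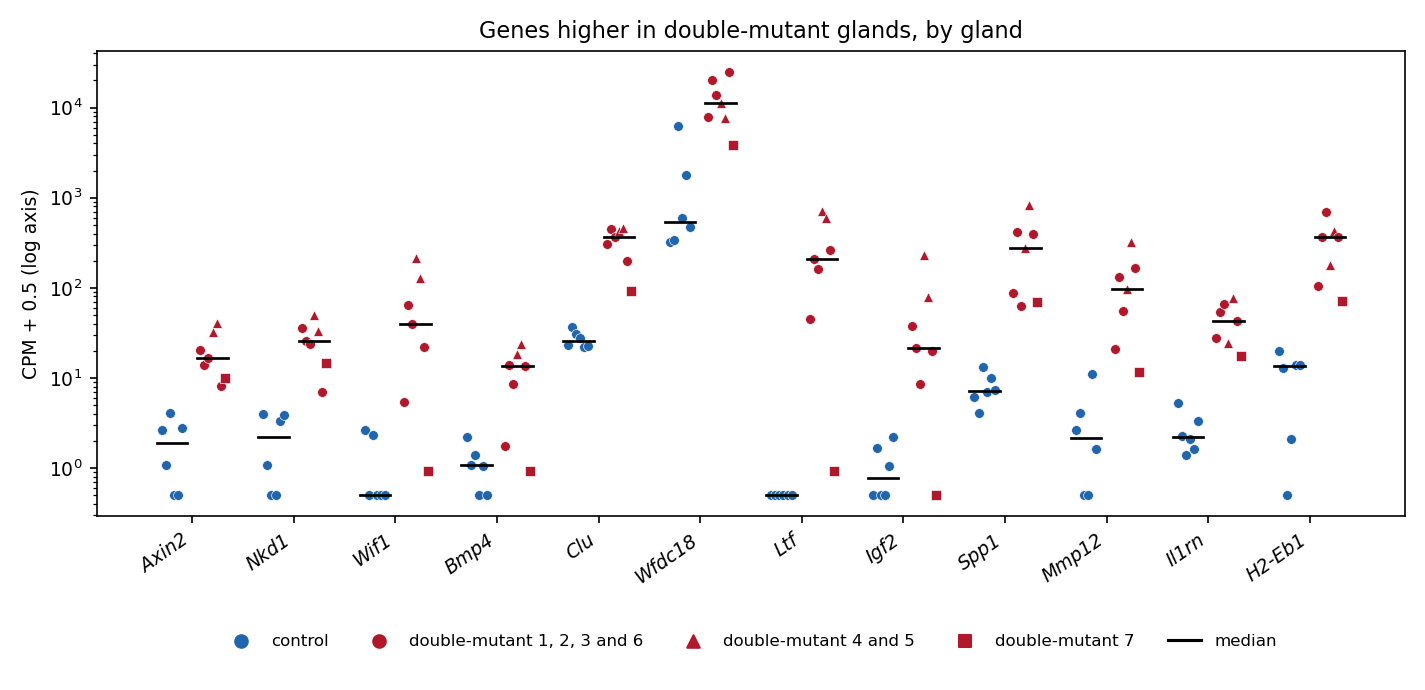
Levels (CPM plus 0.5, log-scaled y axis) of 12 genes that were higher in double-mutant glands at P90, 1 point per gland, with blue circles for 6 controls, red symbols for 7 mutants (triangles for replicates 4 and 5, a square for replicate 7) and bars at the medians. Most mutant glands lie above all control glands, whereas replicate 7 lies with or near the controls for Wif1, Bmp4, Ltf and Igf2.

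The largest falls were those of the granular duct products. Of 17 tested genes of the granular convoluted tubule, 15 were lower in double-mutant glands (1.34% of all tested genes were) and 0 higher, with a median log2 fold change of -3.91. Within batches B8 and B9 16 of 18 were lower with a median of -6.45. That fit had no sex term, and its controls held more males than its mutants, so the medians cannot be compared directly. Most of the listed genes belong to the Klk1b family, serine proteases encoded side by side on chromosome 7 (chr7:43950664-44220703, GENCODE vM21 on GRCm38, the assembly of mm10). RefSeq gave promoter sequences on build GRCm38.p6 for all 13 Klk1b genes of the list, and each window of 300 bases around the annotated start, 250 before and 50 after it, held the letters TTTAAA, which read alike on both strands and resemble the core promoter element bound by the TATA-binding protein. Of all 32851 RefSeq windows 13.2% held it. In 12 Klk1b genes it began 13 to 48 bases before the start, and in Klk1b21 it began 4 bases past it. Below are the 100 bases before the start of 5 family members that fell and of Klk1, the gland's general tissue kallikrein, whose call did not pass. All lie on the plus strand, at chr7:44012578-44012677 (Klk1b26), chr7:43950566-43950665 (Klk1b8), chr7:44216374-44216473 (Klk1b5), chr7:44112573-44112672 (Klk1b22), chr7:43966651-43966750 (Klk1b1) and chr7:44225260-44225359 (Klk1), and the capitals mark this stretch.
Klk1b26: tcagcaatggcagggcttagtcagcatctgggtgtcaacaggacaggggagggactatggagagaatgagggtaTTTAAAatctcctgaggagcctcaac
Klk1b8: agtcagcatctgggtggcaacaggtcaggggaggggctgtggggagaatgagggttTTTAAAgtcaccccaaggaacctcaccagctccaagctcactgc
Klk1b5: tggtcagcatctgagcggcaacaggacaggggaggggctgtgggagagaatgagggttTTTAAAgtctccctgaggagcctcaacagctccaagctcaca
Klk1b22: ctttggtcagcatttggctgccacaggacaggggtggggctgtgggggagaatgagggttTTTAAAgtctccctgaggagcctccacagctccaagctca
Klk1b1: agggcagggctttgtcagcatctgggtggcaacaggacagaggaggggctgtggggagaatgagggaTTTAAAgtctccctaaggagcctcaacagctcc
Klk1: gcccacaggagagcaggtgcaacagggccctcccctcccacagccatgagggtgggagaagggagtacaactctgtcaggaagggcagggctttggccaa

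These 100-base stretches were partly alike within the family, with 45.0 to 90.2% identity over the 78 pairs of Klk1b genes and a median of 69.4%. Between Klk1 and each Klk1b gene it was 44.4 to 51.8%. The annotated starts are offset between genes, with TTTAAA 48 bases before the start in Klk1b4 and 4 past it in Klk1b21. The last bases printed for Klk1 resemble the first ones printed for Klk1b1. A low identity can therefore come from offset starts and does not show that promoters are unlike. Klk1 held no TTTAAA in its window, nor did Ren1, and Egf held it in 1 of its 2 windows. With the offset start, such a stretch could lie past the end of the Klk1 window. Its absence there therefore does not show that Klk1 lacks it. The transcripts are alike as well: in the last 500 bases of 14 Klk1 and Klk1b transcripts, 0 to 23.3% of the 64-base windows (median 6.41%) occurred exactly in another of them. Counts of single members are therefore uncertain where reads could be assigned to a paralog. The sum of the 13 Klk1b genes is not affected by exchange among them. It leaves out Klk1, which shared 19.7% of its windows, and Klk1b7-ps. Exchange with these could change the sum and was not tested.

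Klk1b26 was at 28.3, 312 and 3209 CPM in double-mutant glands and 1868, 16504 and 100709.9 CPM in control glands (log2 fold change -4.71 ± 0.75, adjusted p = 0.00426). It was the most abundant of the falling genes, and the 2 highest mutant glands lay inside the control range. Klk1b5 was at 41.8, 198 and 852 CPM in double-mutant glands and 1572, 5032 and 12950.4 CPM in control glands (log2 fold change -4.44 ± 0.59, adjusted p = 0.00174), and all mutant glands lay below all controls. The other listed Klk1b genes had log2 fold changes between -4.70 (Klk1b8) and -3.30, all called. Ren1, renin, was at 8.49, 108 and 2292 CPM in double-mutant glands and 175, 4735 and 16075 CPM in control glands (log2 fold change -3.23 ± 0.70, adjusted p = 0.0185). Crisp1 was at 2.83, 13.6 and 56.2 CPM in double-mutant glands and 24.5, 245 and 1673 CPM in control glands (log2 fold change -3.84 ± 0.68, adjusted p = 0.00789). Epidermal growth factor (Egf) and Klk1 pointed the same way without passing the test, with log2 fold changes of -2.79 ± 0.78 (adjusted p = 0.0532) and -1.65 ± 0.84 (adjusted p = 0.252).

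Because these genes differ by sex in the control gland, the levels are given by labelled sex, with 3 male and 3 female controls and 3 male and 4 female mutants, 1 of the latter being the library whose Xist and Y-linked counts go against its label. The summed level of the 13 Klk1b genes was 73190.0, 181124 and 283588 CPM in control males and 7922, 12853 and 19587 CPM in control females. In double-mutant glands it was 1284, 7383 and 9432 CPM in males and 200.01, 1188 and 1905 CPM in glands labelled female. Mutant males thus lay below all control males and overlapped control females, and mutant glands labelled female lay below every control gland. Ren1 was at 8856, 12693 and 16075 CPM in control males and 175, 454 and 615 CPM in control females, against 108, 337 and 2292 and 8.49, 61.3 and 117 CPM in the corresponding mutants. The fitted log2 fold change of Klk1b26 was -4.53 in females and -4.97 in males. No gene passed the test of genotype by labelled sex in edgeR (0 of 10699, or 0%, with 246 at an unadjusted p under 0.05 and 1 called by DESeq2), so no difference between the sexes in the size of these falls was shown. Klk1 had the opposite order in controls, 24793, 39664 and 59585 CPM in females and 7245, 8844 and 9641 CPM in males. In batches B8 and B9, 3 of 4 controls but 1 of 3 mutants were males, and the fit within these batches had batch but not sex as a term. Within each sex there, the summed Klk1b level was 7383 CPM in the mutant male against 73190.0 to 283588 CPM in 3 control males, and 200.01 and 1706 CPM in the 2 mutant females against 19587 CPM in the control female.

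**Figure D3:**
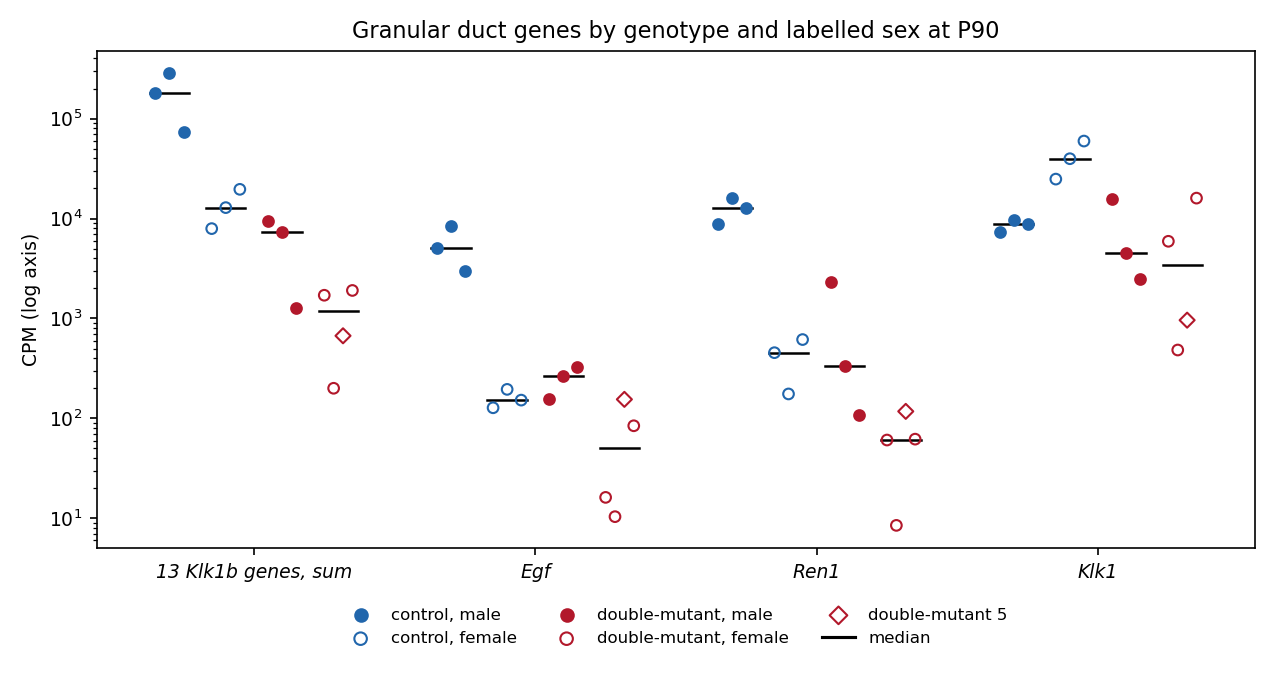
Levels (CPM, log-scaled y axis) of granular duct products in each P90 gland, grouped by genotype and labelled sex, 1 point per gland, with bars at the medians and a diamond for the library labelled double-mutant replicate 5. The summed Klk1b level was 73190 to 283588 CPM in the 3 control males, 7922 to 19587 CPM in the 3 control females, 1284 to 9432 CPM in the 3 mutant males and 200.01 to 1905 CPM in the 4 mutants labelled female.

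Few genes of the other epithelial lists were called. Among intercalated and striated duct genes 1 of 15 was lower, Scnn1b, a subunit of the epithelial sodium channel, at 3.77, 14.2 and 23.4 CPM in double-mutant glands and 29.6, 35.6 and 45.6 CPM in control glands (log2 fold change -1.24 ± 0.31, adjusted p = 0.0346). All 7 mutants lay below all controls for it. Among genes of ionocyte-like duct cells 1 of 11 was lower, the proton pump subunit Atp6v0d2 (log2 fold change -1.23 ± 0.30, adjusted p = 0.0344). Both calls were lost under scaling to total UMIs (-0.78, adjusted p = 0.129 and -0.80, adjusted p = 0.105), and on leaving out any 1 of 10 and 9 glands (adjusted p up to 0.0900 and 0.0801). Within batches B8 and B9 4 of 15 and 2 of 11 were lower, against 1002 of all 10263 genes in that fit. The summed level of the duct markers Klk1, Krt7, Krt8 and Krt19 was 809 to 16210.4 CPM in mutant and 7883 to 59917 CPM in control glands.

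No acinar gene was called among 13 tested, including Prol1, a salivary mucin-like protein (-0.89, adjusted p = 0.488), and Car6, the secreted carbonic anhydrase (-0.49, adjusted p = 0.714). The median of the acinar list was -0.20, turned to 0.10 under total-UMI scaling, and was -1.45 with 6 lower genes within batches B8 and B9. Leaving out double-mutant replicate 7 gave 4 lower ones. Summed acinar markers spread from 3049 to 95395 CPM over mutant glands and from 32036 to 82826 CPM over controls. None of the 22 genes of the secretory machinery and unfolded protein response was called, with Hspa5 at -0.31, adjusted p = 0.562 and Hsp90b1 at -0.16, adjusted p = 0.75. Their median was -0.08, 0.44 under total-UMI scaling and -0.89 with 12 lower genes in batches B8 and B9, where Hspa5 was at -0.92, adjusted p = 0.046 and Hsp90b1 at -0.90, adjusted p = 0.0442. Leaving out double-mutant replicate 7 gave 3 lower ones, against 577 of all 9749 genes in that fit. Demilune and mucous genes gave 0 calls of 7, with a median of 1.32 and all 7 log2 fold changes above 0. They ran from Dcpp1 at 0.01, adjusted p = 0.998 to Muc19 at 4.62, adjusted p = 0.172, with Dcpp2 at 1.06, adjusted p = 0.832 and Wfdc12 at 0.87, adjusted p = 0.566. Galnt12, an enzyme that starts O-glycans, came nearest the threshold (2.11, adjusted p = 0.0588), and it and the immunoglobulin receptor Pigr were called with DESeq2 and with total-UMI scaling.

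Basal keratinocyte genes gave 0 calls of 10 (median 0.62, Itga6 at -0.20, adjusted p = 0.672). Within batches B8 and B9 6 of 11 of these were higher, and 4 were without double-mutant replicate 7. Luminal keratins and junction genes had 0 calls of 11, and their median of -0.22 turned to 0.38 under total-UMI scaling. The stress keratin Krt6a, at 1.23, 14.6 and 32.1 CPM in double-mutant glands and 0, 0 and 1.72 CPM in control glands, and the galectin Lgals7, at 3.87, 44.8 and 78.3 CPM in double-mutant glands and 0, 2.53 and 6.2 CPM in control glands, were the 2 of 11 squamous genes that were higher (log2 fold change 4.80 ± 0.85, adjusted p = 0.00789, and log2 fold change 3.80 ± 0.68, adjusted p = 0.00838). For each, 6 of 7 mutant glands lay above all controls. In batches B8 and B9 alone 6 of 13 were higher, and 4 were without double-mutant replicate 7. Genes used as markers of epithelial-mesenchymal transition were higher in 5 of 8 tested cases with a median of 2.21. Vimentin (Vim) was at 37.8, 103 and 149 CPM in double-mutant glands and 6.28, 28.1 and 42.9 CPM in control glands (log2 fold change 2.02 ± 0.44, adjusted p = 0.0182), and the matrix protein Tgfbi at 21.9, 46.5 and 131 CPM in double-mutant glands and 0, 5.6 and 9.45 CPM in control glands without overlap (log2 fold change 3.47 ± 0.63, adjusted p = 0.00883). S100a4 was also higher (log2 fold change 2.94 ± 0.62, adjusted p = 0.0169). Fn1 was at 5.06, 23.6 and 138 CPM in double-mutant glands and 0.558, 0.878 and 3.2 CPM in control glands, each mutant above each control (log2 fold change 5.01 ± 0.80, adjusted p = 0.0043). Fibroblasts, macrophages and endothelial cells also use Vim, Fn1 and S100a4. Fibroblast markers summed to 93.4 to 604 against 47.2 to 155 CPM in mutant and control glands. Endothelial markers summed to 12.3 to 119 against 4.0 to 30.7 CPM, and the macrophage list to 1042 to 2636 against 99.6 to 1068 CPM, with small overlaps of the ranges. Their part in these rises was not tested.

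Macrophage genes were higher in 6 of 16 tested cases and lower in 0, with a median of 1.72. The count was 13 of 16 with DESeq2, 13 of 16 with total-UMI scaling and 14 of 16 within batches B8 and B9. With 1 gland left out it was 3 (without double-mutant replicate 2 or 6 or control replicate 2 or 4), 10 (without double-mutant replicate 4), 11 (without control replicate 5) and 13 (without double-mutant replicate 7). Lyz2, lysozyme of myeloid cells, was at 184, 319 and 613 CPM in double-mutant glands and 8.0, 65.5 and 115 CPM in control glands. Every mutant gland exceeded every control (log2 fold change 2.60 ± 0.57, adjusted p = 0.0185). The Fc receptor Fcgr3 (log2 fold change 2.32 ± 0.42, adjusted p = 0.00866), Ms4a7 (log2 fold change 1.90 ± 0.42, adjusted p = 0.0208) and the lysosomal glycoprotein Cd68 (log2 fold change 1.47 ± 0.35, adjusted p = 0.0284) were higher as well. Genes of matrix-remodeling and lipid-handling macrophages were higher in 5 of 11 cases. Spp1, osteopontin, was at 62.7, 274 and 827 CPM in double-mutant glands and 3.55, 6.58 and 12.6 CPM in control glands (log2 fold change 5.42 ± 0.70, adjusted p = 0.00144), and the macrophage elastase Mmp12 at 11.2, 95.3 and 320.1 CPM in double-mutant glands and 0, 1.64 and 10.6 CPM in control glands (log2 fold change 5.18 ± 0.92, adjusted p = 0.00789). Neither overlapped, and both were highest in the library labelled replicate 5. Lpl, lipoprotein lipase, rose with them (log2 fold change 2.32 ± 0.47, adjusted p = 0.0141). Gpnmb had 212 UMIs in mutant and 3 in control glands, a ratio of 60.4 with a 95% counting interval of 20.4 to 295 (adjusted p = 0.00815).

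Of the 7 pan-immune markers 0 were called. Their summed level was 631, 1512 and 2913 CPM in mutant and 112, 856 and 1367 CPM in control glands, so that the ranges overlapped, and its part in the rises of immune genes was not tested. Neutrophil and inflammatory genes were higher in 4 of 6 tested cases and in 8 of 9 within batches B8 and B9. The count was 7 (without double-mutant replicate 7 or control replicate 5). Il1rn, which encodes the antagonist of the interleukin-1 receptor, was at 16.8, 42.6 and 75.6 CPM in double-mutant glands and 0.898, 1.69 and 4.73 CPM in control glands, a clear separation of the groups (log2 fold change 4.22 ± 0.46, adjusted p = 3.14e-04). The C-type lectins Clec4d and Clec4e had 0 and 1 UMI over all control glands and UMIs in all 7 mutants. Clec4d was thus at least 33.1-fold higher (adjusted p = 0.00637), and Clec4e had a ratio of 89.8 with a 95% counting interval of 15.8 to 3580 (adjusted p = 0.00138). Ptgs2, cyclooxygenase-2, was higher with overlap (log2 fold change 2.09 ± 0.55, adjusted p = 0.0446), a call lost on leaving out any 1 of 9 glands. In the T and NK cell list 0 of 5 were called (Ccl5 0.16, adjusted p = 0.898 and Il7r 1.78, adjusted p = 0.112), and its median of -0.67 turned to 0.09 under total-UMI scaling. Il7r was called within batches B8 and B9 (2.38, adjusted p = 0.0436). Among B and plasma cell genes 1 of 8 was higher, the syndecan Sdc1 (log2 fold change 2.18 ± 0.41, adjusted p = 0.0111), which epithelia also express. The list median was 2.07, with 7 of 8 log2 fold changes above 0. Its summed level was 1140, 5570 and 19775 CPM in mutant and 51.2, 872 and 1956 CPM in control glands, with overlap. DESeq2 and total-UMI scaling each gave 3 higher of 8, and batches B8 and B9 gave 2 higher and 1 lower.

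Interferon-stimulated genes were higher in 8 of 13 tested cases and lower in 0, with a median of 1.95. On leaving out 1 gland the count was 4 (without double-mutant replicate 6 or control replicate 2) and 5 (without double-mutant replicate 2 or 3 or 5 or control replicate 1 or 3 or 4). Irf7, the transcription factor that amplifies the type I interferon response, was at 13.8, 22.6 and 56.5 CPM in double-mutant glands and 3.59, 5.58 and 8.46 CPM in control glands, and the groups did not overlap (log2 fold change 2.17 ± 0.35, adjusted p = 0.00426). The same held for Usp18, which removes ISG15 from proteins, at 7.55, 17.6 and 29.3 CPM in double-mutant glands and 1.8, 3.1 and 5.02 CPM in control glands (log2 fold change 2.33 ± 0.37, adjusted p = 0.00395), and for the antiviral enzyme Rsad2 at 10.3, 15.4 and 82.9 CPM in double-mutant glands and 1.6, 5.03 and 10.04 CPM in control glands (log2 fold change 2.53 ± 0.52, adjusted p = 0.0156). Stat2 was higher by less (log2 fold change 1.18 ± 0.26, adjusted p = 0.0186). Chemokines and their receptors were higher in 8 of 17 cases with a median of 1.74, with fewer calls on leaving out some glands: 5 (without double-mutant replicate 2 or 6 or control replicate 4). The myeloid chemokines Ccl6, at 17.2, 65 and 104 CPM in double-mutant glands and 0.898, 2.9 and 6.2 CPM in control glands, and Ccl9 both separated the groups (log2 fold change 3.86 ± 0.53, adjusted p = 0.00207, and log2 fold change 3.03 ± 0.54, adjusted p = 0.00789). Cxcl14, an epithelial and stromal chemokine, was at 25, 66.6 and 166 CPM in double-mutant glands and 1.77, 5.78 and 18.4 CPM in control glands (log2 fold change 3.35 ± 0.58, adjusted p = 0.00736), and Cxcl12, the ligand of Cxcr4, at 5.24, 38.2 and 62.7 CPM in double-mutant glands and 0.800, 3.15 and 13 CPM in control glands (log2 fold change 2.87 ± 0.56, adjusted p = 0.0124). Double-mutant replicate 1, with 5.24 CPM, was the single mutant gland inside the control range of Cxcl12.

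Of 6 tested MHC class II genes 1 was higher, and 3 were within batches B8 and B9. H2-Eb1, the β chain of the H2-E molecule, was at 71, 365 and 699 CPM in double-mutant glands and 0, 12.9 and 19.3 CPM in control glands, and the lowest mutant gland lay above the highest control (log2 fold change 4.98 ± 0.71, adjusted p = 0.00284). The other 5 tested class II genes were not called, among them the H2-A chains H2-Ab1, at 125, 443 and 674 CPM in double-mutant glands and 34.1, 272 and 527 CPM in control glands (log2 fold change 0.80 ± 0.56, adjusted p = 0.412), and H2-Aa (0.37, adjusted p = 0.714), and the invariant chain Cd74 (1.07, adjusted p = 0.278). Their ranges overlapped widely. A ratio of both β chains within a gland does not depend on scaling. Per 100 UMIs of H2-Ab1, mutant glands had 39.1, 56.9 and 123 UMIs of H2-Eb1 and control glands 0, 3.48 and 5.72. The mean was 67.9 ± 27.8 (SD, n = 7) against 3.25 ± 1.90 (SD, n = 6), a difference with p = 5.83e-04 in a two-sided exact permutation test, the smallest that the 1716 arrangements allow. In total, mutant glands held 2935 H2-Eb1 and 4367 H2-Ab1 UMIs and control glands 116 and 3014. The ratio was compared after H2-Eb1 had been seen among the largest rises. At P40 the ratio was 36.7, 46.8 and 91.7 in 7 mutant and 1.28, 5.52 and 59.5 in 6 control glands, 2 of which lay with the mutants (exact permutation p = 0.0355). Genes of the MHC class I pathway gave 0 calls of 8 (B2m 0.19, adjusted p = 0.77 and H2-D1 -0.21, adjusted p = 0.688).

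**Figure D4:**
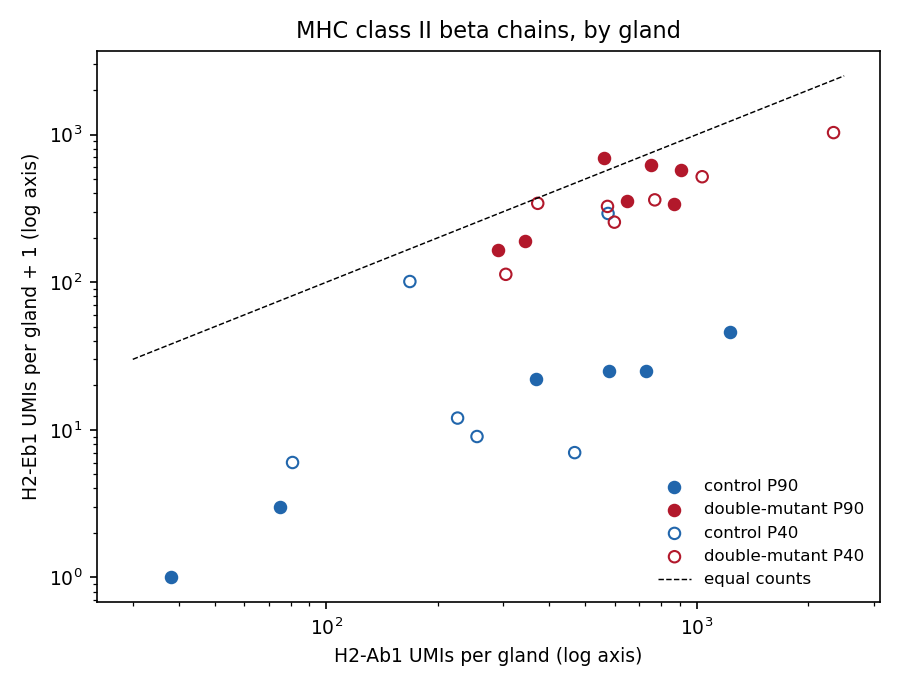
H2-Eb1 UMIs plus 1 (log-scaled y axis) against H2-Ab1 UMIs (log-scaled x axis), by genotype and stage, 1 point per gland, with a dashed line at equal counts. Per 100 H2-Ab1 UMIs, the 7 double-mutant glands at P90 held 39.1 to 123 H2-Eb1 UMIs and the 6 control glands 0 to 5.72. At P40 the control glands reached 59.5.

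Fibroblast genes were the stromal list with the most calls. Of 10 tested fibroblast and fibrillar collagen genes 7 were higher and 0 lower, with a median of 2.85. Within batches B8 and B9 11 of 13 were higher. The count was 4 (without double-mutant replicate 6) and 12 (without double-mutant replicate 1 or 7). Col3a1, type III collagen, was at 11.4, 43.5 and 136 CPM in double-mutant glands and 1.77, 3.93 and 13.6 CPM in control glands, and replicate 1 was the only mutant gland within the control range (log2 fold change 3.42 ± 0.53, adjusted p = 0.00371). Type I collagen rose as well, with log2 fold changes of 3.57 ± 0.76 for Col1a1 (adjusted p = 0.0172) and 3.35 ± 0.53 for Col1a2 (adjusted p = 0.00422), as did the microfibril gene Mfap5 (log2 fold change 2.85 ± 0.52, adjusted p = 0.00883). Among matrix remodeling genes 5 of 12 were higher, including the protease inhibitors Serpine2 (log2 fold change 2.51 ± 0.57, adjusted p = 0.0225) and Timp1 (log2 fold change 2.45 ± 0.56, adjusted p = 0.0234) and the membrane protease Mmp14 (log2 fold change 2.38 ± 0.52, adjusted p = 0.0185). In batches B8 and B9 alone 11 of 15 were higher. Left-out glands gave 2 (without double-mutant replicate 2), 3 (without double-mutant replicate 5 or 6 or control replicate 2), 8 (without double-mutant replicate 1) and 11 (without double-mutant replicate 7). Cyr61, a matricellular early response gene, was lower (log2 fold change -0.99 ± 0.23, adjusted p = 0.0277), a call lost under total-UMI scaling (-0.33, adjusted p = 0.498). Without the library labelled double-mutant replicate 5, Mmp14 missed the threshold (2.07, adjusted p = 0.0503).

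Endothelial genes were higher in 6 of 11 tested cases with a median of 1.68. Within batches B8 and B9 9 of 12 were higher. The count was 3 (without double-mutant replicate 2 or 5 or 6) and 10 (without double-mutant replicate 7). Col4a2, a chain of basement membrane collagen, was at 4.93, 29.2 and 49.2 CPM in double-mutant glands and 1.8, 4.55 and 11.2 CPM in control glands (log2 fold change 2.17 ± 0.46, adjusted p = 0.0172), and replicate 1 alone overlapped the controls. Kdr, the main VEGF receptor (log2 fold change 1.77 ± 0.39, adjusted p = 0.0185), Plvap of fenestrated capillaries (log2 fold change 1.84 ± 0.42, adjusted p = 0.0243) and Egfl7 (log2 fold change 1.5 ± 0.31, adjusted p = 0.0167) were higher too. Smooth muscle and pericyte genes gave 0 calls of 8 (Acta2 -1.2, adjusted p = 0.353 and Rgs5 0.94, adjusted p = 0.453), with a median of -0.70 that was 1.22 within batches B8 and B9, where 4 of 9 were higher, Rgs5 among them (1.77, adjusted p = 0.00154). Markers of blood, fat, nerve and muscle gave 0 calls of 5 (Hbb-bs -3.32, adjusted p = 0.188 and Fabp4 1.56, adjusted p = 0.0594), and Fabp4 was called without double-mutant replicate 1, 4 or 7.

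Proliferation genes were mostly not called. Top2a, a topoisomerase of dividing cells, was at 5.24, 11.8 and 21.9 CPM in double-mutant glands and 1.8, 2.33 and 4.46 CPM in control glands without overlap (log2 fold change 2.19 ± 0.43, adjusted p = 0.0127), and Mki67 at 4.72, 12 and 19.8 CPM in double-mutant glands and 0.564, 3.93 and 5.91 CPM in control glands (log2 fold change 1.70 ± 0.45, adjusted p = 0.0456). These were the 2 called of 9 tested, the list median was 0.26, and Mki67 missed the threshold within batches B8 and B9 (1.37, adjusted p = 0.13) and on leaving out any 1 of 9 glands (adjusted p up to 0.124). Of 31 nuclear genes of oxidative phosphorylation 2 were lower, Uqcrb of complex III at 62.4, 183 and 217 CPM in double-mutant glands and 304, 335 and 396 CPM in control glands (log2 fold change -1.12 ± 0.30, adjusted p = 0.0444) and Cox5a of complex IV (log2 fold change -0.94 ± 0.24, adjusted p = 0.0369). All 31 log2 fold changes were below 0, with a list median of -0.73, against -0.31 and 0 calls under total-UMI scaling. With DESeq2 7 genes were lower, and within batches B8 and B9 24 were. The count was 0 (without double-mutant replicate 2 or 3 or 4 or 5 or 6 or control replicate 1 or 2 or 3 or 4 or 5 or 6), 1 (without double-mutant replicate 1) and 17 (without double-mutant replicate 7). In glycolysis and hypoxia genes Hk2, the inducible hexokinase, was higher (log2 fold change 1.41 ± 0.38, adjusted p = 0.0465) and Aldoa, aldolase, lower (log2 fold change -0.95 ± 0.25, adjusted p = 0.0433) of 18 tested, with a median of -0.23 that turned to 0.28 under total-UMI scaling. Aldoa was not called under that scaling (-0.49, adjusted p = 0.148) and Hk2 not within batches B8 and B9 (0.88, adjusted p = 0.051). They also missed the threshold on leaving out any 1 of 12 and 10 glands (adjusted p up to 0.114 and 0.145).

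Immediate early and dissociation stress genes gave 1 higher and 1 lower call of 16, with a median of 0.02. Ier3 was at 278, 413 and 527 CPM in double-mutant glands and 112, 139 and 219.8 CPM in control glands, with no overlap (log2 fold change 1.46 ± 0.22, adjusted p = 0.00371). The heat shock gene Hspa1a was at 152, 236 and 317 CPM in double-mutant glands and 247, 577 and 815 CPM in control glands (log2 fold change -1.28 ± 0.30, adjusted p = 0.0249), a call lost under total-UMI scaling (-0.73, adjusted p = 0.128) and on leaving out any 1 of 6 glands.

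**Figure D5:**
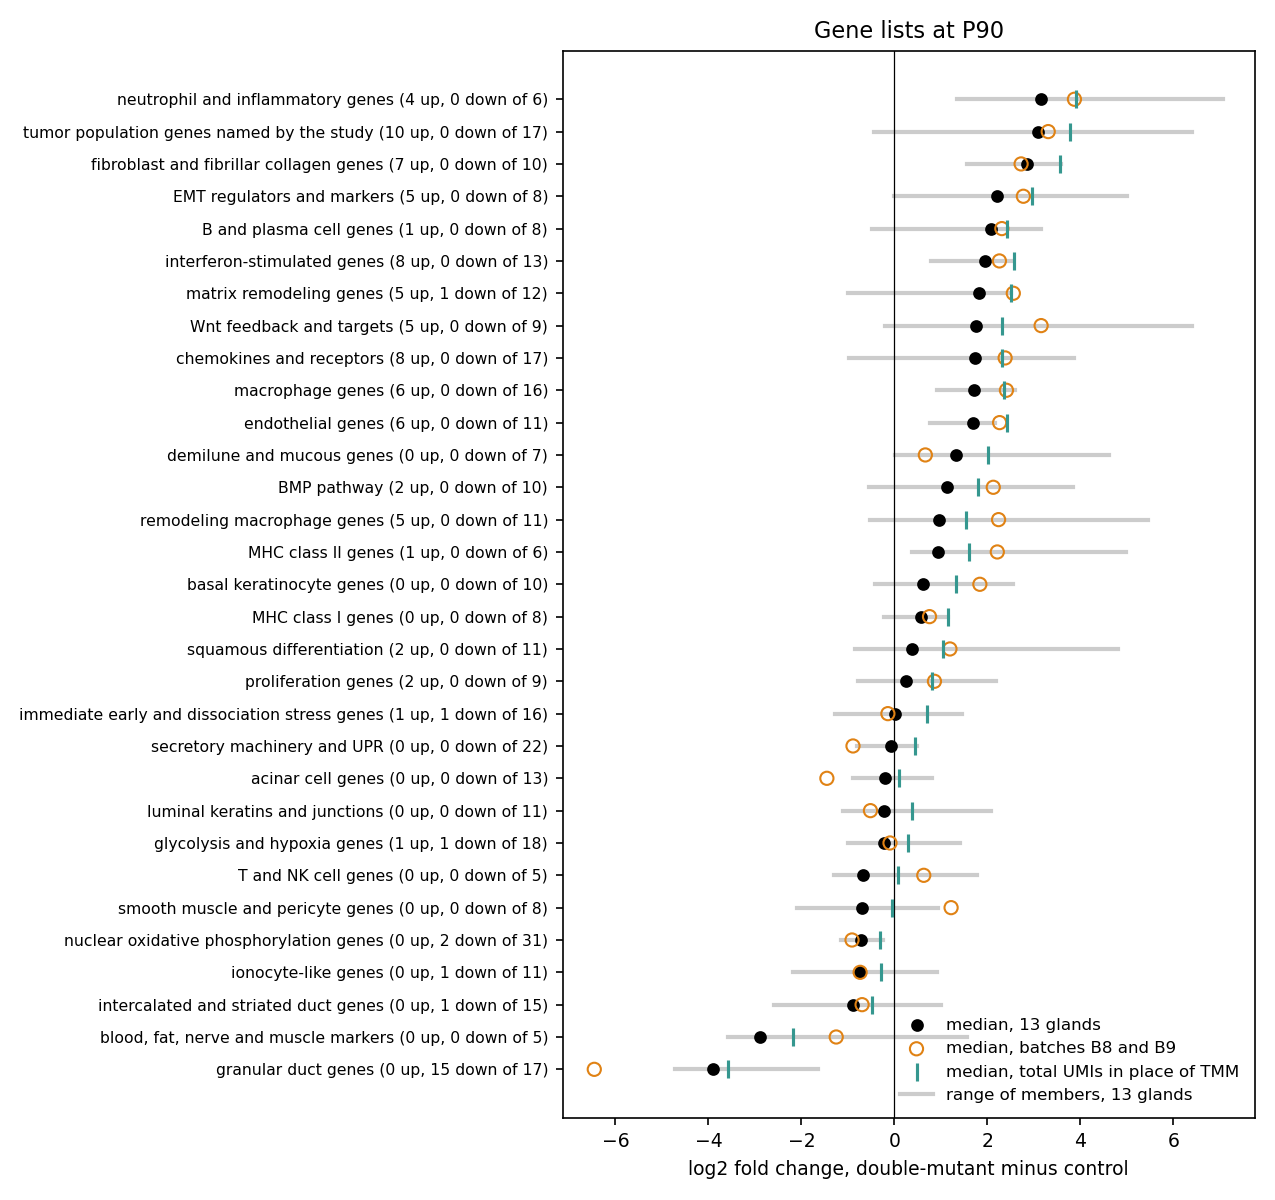
Log2 fold changes of double-mutant over control glands at P90 for each gene list, 1 row per list, with the median of its tested genes (black points), their range (gray lines), the median within batches B8 and B9 (open circles) and that under total-UMI scaling (ticks). Granular duct genes lie furthest to the left (median -3.91), while neutrophil (3.15), tumor population (3.09) and fibroblast lists (2.85) lie furthest to the right.

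The share of cells with a transcript was then compared for 8 genes, after each cell had been thinned to 300 UMIs, which left out 796 mutant and 14 control cells of lower depth. Tests were two-sided exact permutation tests over glands with p adjusted over the 8 genes. The study named Wif1, Axin2, Ptn, Clu and Wfdc18 for its tumor-specific cells on these same libraries. Tests of these genes are therefore not independent evidence of their direction. Clu was found in 8.38 ± 3.47% of cells in mutant and 0.778 ± 0.236% in control glands (SD, n = 7 and 6, exact permutation, adjusted p = 0.00466), against 1.37% and 0.532% of cells with immune markers, which should lack epithelial transcripts. Wif1 was found in 2.95 ± 2.96% against 0.0413 ± 0.0671% (adjusted p = 0.0354, exact permutation), with 7.93% in the highest and 0.147% in the lowest mutant gland, and Axin2 in 0.873 ± 0.642% against 0.0866 ± 0.135% (adjusted p = 0.0152, exact permutation). Neither was seen in the thinned immune-marked cells, 437 in mutant and 188 in control glands. Wfdc18 was found in 43.2 ± 10.9% against 8.15 ± 6.07% (adjusted p = 0.00466, exact permutation), but also in 20.6% and 1.06% of immune-marked cells, a background that was itself higher in value in mutant glands. Free RNA and doublets, which were not removed, cannot be told apart in it.

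Col3a1 was found in 1.58 ± 1.04% of mutant and 0.262 ± 0.155% of control cells (adjusted p = 0.0152, exact permutation). The myeloid adaptor Tyrobp was found in 6.62 ± 2.37% against 3.31 ± 2.69% (adjusted p = 0.0583, exact permutation). Ptn, a heparin-binding growth factor, ran from 0.147 to 11.2% over mutant glands and from 0 to 2.56% over control glands (adjusted p = 0.155, exact permutation). Krt14 was found in 3.63 ± 3.05% against 2.38 ± 2.06% (adjusted p = 0.406, exact permutation). The last 3 differences did not pass the test after adjustment. Without thinning, the mean shares in mutant and control glands were 16.4 and 3.83% for Clu, 4.12 and 0.0567% for Wif1, 2.44 and 0.232% for Axin2, 61.6 and 19% for Wfdc18, 2.06 and 0.443% for Col3a1, 10.2 and 5.94% for Tyrobp, 5.31 and 2.4% for Ptn and 5.25 and 4.41% for Krt14, at a median depth per gland of 408 to 2780.5 UMIs per cell in mutants and 843 to 2431 in controls.

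Whether the P90 difference was not that of P40 was tested over 26 glands with an interaction of genotype and stage. Of 11420 genes 1 was called (0.00876%), the clone-named transcript RP24-89H23.2, and none of the granular duct or Wnt genes. At P40, with 7 mutant and 6 control glands, 26 of 10213 genes were called on their own, 25 higher and 1 lower. Axin2 had a log2 fold change of 2.94 at P40 and 3.75 at P90, Wif1 of 7.33 and 6.41, Spp1 of 4.67 and 5.42, and Clu of 2.47 and 3.61. The granular duct list had a median of -1.14 and 0 calls at P40 against -3.91 and 15 calls at P90. Klk1b5 had -1.47 and -4.44 (adjusted p of the interaction 0.568), and Col3a1 1.05 and 3.42 (0.585). Wfdc18 had 0.26 at P40 and 3.65 at P90 (0.903), and no difference between the stages was shown for any of these. Among control glands stage and batch cannot be told apart.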

How the data were processed

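UMIs were counted in 13 P90 Drop-seq libraries. Per the study's methods and the labels, the authors aligned reads to mm10 plus Cre and EYFP (STAR within the Drop-seq pipeline), kept barcodes above the knee, and deposited raw UMI counts per gene symbol and barcode, without normalization or filters on genes. Here barcodes with at least 100 genes and under 15% mitochondrial UMIs were kept and summed per gland. Depth was 691944 to 3928909 UMIs per gland, and intervals and floors (3 counts over the group) cover counting error only. Groups, labelled sex and batch came from titles. Genes were tested in R 4.3.3 with edgeR 4.0.16 and limma 3.58.1 (quasi-likelihood test, TMM, filterByExpr, labelled sex as covariate, Benjamini-Hochberg over all tested genes, threshold 0.05). Standard errors were derived from the log2 fold change and its F statistic. P-values measure the spread between glands, 1 library each. DESeq2 1.42.0, other scalings and filters, batches and left-out libraries were the alternatives.

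Members and the 31 gene lists were chosen with earlier results of these data known. The text names the targeted genes, the 12 largest rises and falls among called genes with a mean of at least 20 CPM (clone-named, predicted, ribosomal and mitochondrial genes left out), and up to 4 called genes per list by p (or 2 tested ones where none was called). Other genes were named after their values were seen. The unadjusted count of genes at p under 0.05 was 2141. The absent symbols Dst, Sprr3, Igj and Mmp10 were not tested. Doublets were not removed. Some genes of the lists are not reported here by name. The scripts were tested on simulated data. Promoters came from RefSeq (GRCm38.p6) and coordinates and transcripts from GENCODE vM21. Sums and permutation tests used scipy 1.17.1, pandas 2.3.3 and numpy 2.4.6 under Python 3.11.15, sequences Biopython 1.88, and plots matplotlib 3.10.9.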

Additional observations from a re-analysis of the deposited data

Results flagged for a closer look

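In groups of 6 or 7 glands, single values far from the rest were sought among the named genes, and 8 of 202 group and gene pairs had one, where chance gives about 5%. Control replicate 4 had 16 CPM of Bmpr1a, below the 23.0 to 25.1 CPM of the other controls. Control replicate 2 had 0.591 CPM of Clec4e, its single UMI among controls. Control replicate 3 had 8.98 CPM of Odam against 0 to 0.558 CPM in the others, and control replicate 5 had 1174 CPM of H2-D1 against 439 to 634 CPM. Control replicate 6 had 0.564 CPM of Mki67 against 3.59 to 5.91 CPM. Among mutants, replicate 7 had 13.8 CPM of Cd68 (24.2 to 35.4 CPM in the others), replicate 1 had 5.24 CPM of Cxcl12 (28.8 to 62.7 CPM) and the library labelled replicate 5 had 182 CPM of Epcam (297 to 373 CPM).

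The transcript RP24-89H23.2, named for a genomic clone, was the 1 gene whose difference by genotype was itself different between stages, with an interaction of -4.59 ± 0.79 on the log2 scale (adjusted p = 0.0451, edgeR). At P90 it was at 0, 1.47 and 5.16 CPM in mutant and 27.8, 41.3 and 60.9 CPM in control glands, and its log2 fold change was -4.72 at P90 and 0.01 at P40. The call was lost without the library labelled double-mutant replicate 5, where 0 genes were called.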

How the results depend on the processing

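None of the 80 named genes called changed sign under any alternative that tested it, whereas 12 of the 20 tested but not called did under at least 1, 7 of them under total-UMI scaling. Without the sex covariate 69 of the 80 were tested, and 68 with glands thinned to the same UMIs. The 80 were chosen by their calls on these glands, which every alternative refits wholly or in part. This contrast is therefore not independent evidence. Of the 80, DESeq2 kept 80, no filter on low counts 79, batches B8 and B9 alone 77, total-UMI scaling 73 and the replicate block 49, under which 2 of 18 granular duct genes were lower. The block fit had replicate and genotype but not sex as terms, and each of its pairs joined glands of opposite labelled sex. Granular duct genes differ by sex in control glands, so that count cannot be compared directly with the main one. Leaving out 1 gland kept 64 (double-mutant replicate 2 or 6), 65 (control replicate 2), 66 (control replicate 4 or 6, double-mutant replicate 5), 70 (control replicate 1 or 3, double-mutant replicate 3), 72 (control replicate 5), 76, 78 and 80 (double-mutant replicates 4, 1 and 7). The count of 446 called genes became 996 with DESeq2 (445 of the 446 among them), 825 with total UMIs, 1430 with no filter, 2378 within batches B8 and B9 and 261 without double-mutant replicates 4 and 5 together. Leaving out 1 gland gave 206 to 1651: 206 without double-mutant replicate 6, 228 without replicate 2, 235 without replicate 5, 684 without replicate 4 and 1651 without replicate 7 (all 446 among these), and 261, 290, 248 and 253 without control replicates 2, 3, 4 and 6. With the replicate block 305 were called, 258 higher and 47 lower, with 210 of the 446 among them. Same-numbered glands share only a number: their deviations correlated at -0.32 to -0.01, and 0 of 6 matched their own number best. The 1 gene of genotype by stage became 8 with DESeq2, 189 with no filter, 3 without double-mutant replicate 4, 0 without replicate 5 and 0 with the replicate block (this last chosen after seeing the data). Genotype by sex gave 1 gene with DESeq2 and 24 with no filter. Of cell shares, Ptn passed within batches B8 and B9 (a difference of 5.43 percentage points), Tyrobp passed at 200 UMIs (2.43), and Col3a1 missed within batches B8 and B9 (1.21). The causes were not tested. Depth limits genes under a few CPM, and 11 of the 12 largest falls belong to 1 family of like sequences.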

Other observations

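The genes of this section were picked after their values were seen, so their counts support nothing. Besides Igf2 and H19, the maternally expressed noncoding RNA Meg3 was higher (3.57 ± 0.84 on the log2 scale, adjusted p = 0.0265), whereas the imprinted genes Peg3 (1.95 ± 0.67, adjusted p = 0.101), Cdkn1c (1.21 ± 0.49), Igf2r (0.17 ± 0.28) and Gnas (-0.79 ± 0.29) were not called. Igf1, an insulin-like growth factor (3.08 ± 0.65), was among the called rises, as were the binding proteins Igfbp3 (2.35 ± 0.47), Igfbp4 (2.77 ± 0.61) and Igfbp7 (2.32 ± 0.53). Other called rises were the complement component C3 (3.42 ± 0.67), the cathepsin Ctsb (1.45 ± 0.31), the acid lipase Lipa (2.07 ± 0.39) and the endopeptidase Lgmn (2.14 ± 0.57). Slpi, a secreted inhibitor of neutrophil elastase, was higher (3.69 ± 0.66). The mitochondrial chaperones Hspd1 (-1.08 ± 0.26) and Hspe1 (-1.22 ± 0.27) and the scaffold Phb (-1.15 ± 0.26) were lower.

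Trim12a, a gene of an antiviral Trim cluster on chromosome 7, was at 1.85, 10.1 and 11.4 CPM in mutant and 0, 0 and 0.43 CPM in control glands (adjusted p = 0.00371). Within 10 Mb of Ctnnb1, 6 of 57 tested genes were called (10.5%, Ltf, Cx3cr1 and Ccr2 among them), and 1 of 47 within 10 Mb of Bmpr1a (2.13%). Around H2-Eb1 it was 11 of 207 (5.31%), and over all tested genes with a position it was 437 of 8739 (5.0%).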
